A study of Mus musculus with 6 samples.

Results

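The genes described here are the protein-coding genes of the mouse segment that is present in an extra copy in Ts1Cje cells, apart from a list of named genes. The segment is the distal end of chromosome 16. Members were all coding genes of the count table that start from 90225680 (Scaf4) to 97943357 (Zbtb21) on chromosome 16 in mm10, except genes left out by symbol. Left out were the interferon and interleukin receptor chains, Runx1, Erg, Ets2, Dyrk1a, Rcan1, Bace2 and further named genes. This left 51 members of 74 coding genes in the segment and of 55487 genes in all. The rule itself uses position and symbols, not measured values, though it was written with earlier results of these data known.

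RNA was sequenced from primitive macrophages, the first macrophages of the embryo, which arise in the yolk sac and seed the brain as microglia. They were grown for 12 days from mouse embryonic stem cells that were either Ts1Cje or wild-type, with the growth factors activin A, BMP-4, FGF2 and VEGF and the cytokines IL-3, M-CSF and SCF in both. The Ts1Cje mouse is used as a model of Down syndrome. In it the segment is carried a further time and is joined to the end of chromosome 12, so that its genes have 3 copies in place of 2. The study asked why microglia are fewer in Ts1Cje embryos. Each genotype had 3 libraries, numbered by lot in the labels. The labels give neither the strain nor the sex, and do not say whether a lot is a separate stem cell line or a separate culture, so a p-value here measures the spread between samples alone, and that spread may be technical.

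A gene with a further copy is usually transcribed in proportion to its dose, which gives 1.5-fold more RNA, or 0.58 on the log2 scale. Single genes can depart from that through feedback, through competition for regulators or because the gene is silent in the cell type. The members have no common pathway. They include splicing factors, a replication factor, parts of trafficking complexes, a ubiquitin ligase, a biotin ligase and several genes known from neurons, epithelia and ion channels.

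Library totals were 25484294 to 32658148 counts. All 10 macrophage markers examined were counted, with summed levels of 9120 to 19000 CPM (counts scaled to the library total) in wild-type and 10500 to 19700 CPM in Ts1Cje libraries. At least 10 counts in 3 libraries were reached by 0 of 7 pluripotency and 0 of 7 neutrophil markers. Of other lineages, 6 of 7 epithelial, 6 of 7 mesenchymal, 5 of 7 endothelial, 4 of 6 cardiomyocyte and 3 of 7 erythroid markers reached it. So did 2 of 7 neural and 2 of 7 megakaryocyte and mast cell markers. Outside the macrophage list the highest sum was 186 CPM, for megakaryocyte and mast cell markers in wild-type replicate 2. On the first principal component wild-type replicate 1 scored -88.2 and the remaining 5 libraries -18.7 to 38.7, and log2 fold changes of named genes that moved by over 1.5 times without that library are given with and without it. The RNA is from whole cultures, in which fewer cells of a type and less RNA per cell cannot be told apart.

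Of the 51 members, 29 had at least 10 counts in at least 3 libraries, and the same 29 passed the filter of the statistical test. These were Scaf4, Hunk, Mis18a, Mrap, Urb1, Cfap298, Paxbp1, 4932438H23Rik, Tmem50b, Dnajc28, Son, Donson, Cryzl1, Slc5a3, Smim11, Clic6, Dop1b, Morc3, Hlcs, Pigp, Ttc3, Vps26c, Get1, Lca5l, B3galt5, Tmprss2, Prdm15, C2cd2 and Zbtb21. A further 5 (Eva1c, Kcne1, Sh3bgr, Fam3b and Ripk4) had some counts but too few, and 17 had 0 counts in all 6 libraries. Every member has the same chromosome 16 start and end in the count table and in GENCODE M21.

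Of the 29 tested members, 26 had a positive log2 fold change (89.7%), where 49.2% of all 13821 genes tested had one. Their median log2 fold change was 0.57, a fold of 1.48, with quartiles of 0.38 and 0.80; over all genes the median was -0.01, with quartiles of -0.26 and 0.23. In 16 of the 29 the lowest Ts1Cje library exceeded the highest wild-type library, which is called separated below, where 6.38% of all genes were separated upwards. Separated downwards were 0 members, where 5.72% of all genes were. Gene by gene, 0 members passed an adjusted p of 0.05 over all genes (edgeR quasi-likelihood, Benjamini-Hochberg), where 0.00724% of genes passed, a single gene that is not a member. The lowest adjusted p among members was 0.792, shared by 20 of them. At an unadjusted p under 0.05 there were 14 members higher and 0 lower, where 2.99% of all genes were higher and 2.8% lower. The count of 14 was 9 without Ts1Cje replicate 1. DESeq2 called 3 members, Hlcs, Ttc3 and Vps26c, all higher, where it called 0.406% of genes. With limma-voom 0 members passed. Values below are therefore descriptions, and no member is said to have changed by the edgeR test.

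**Figure D1:**
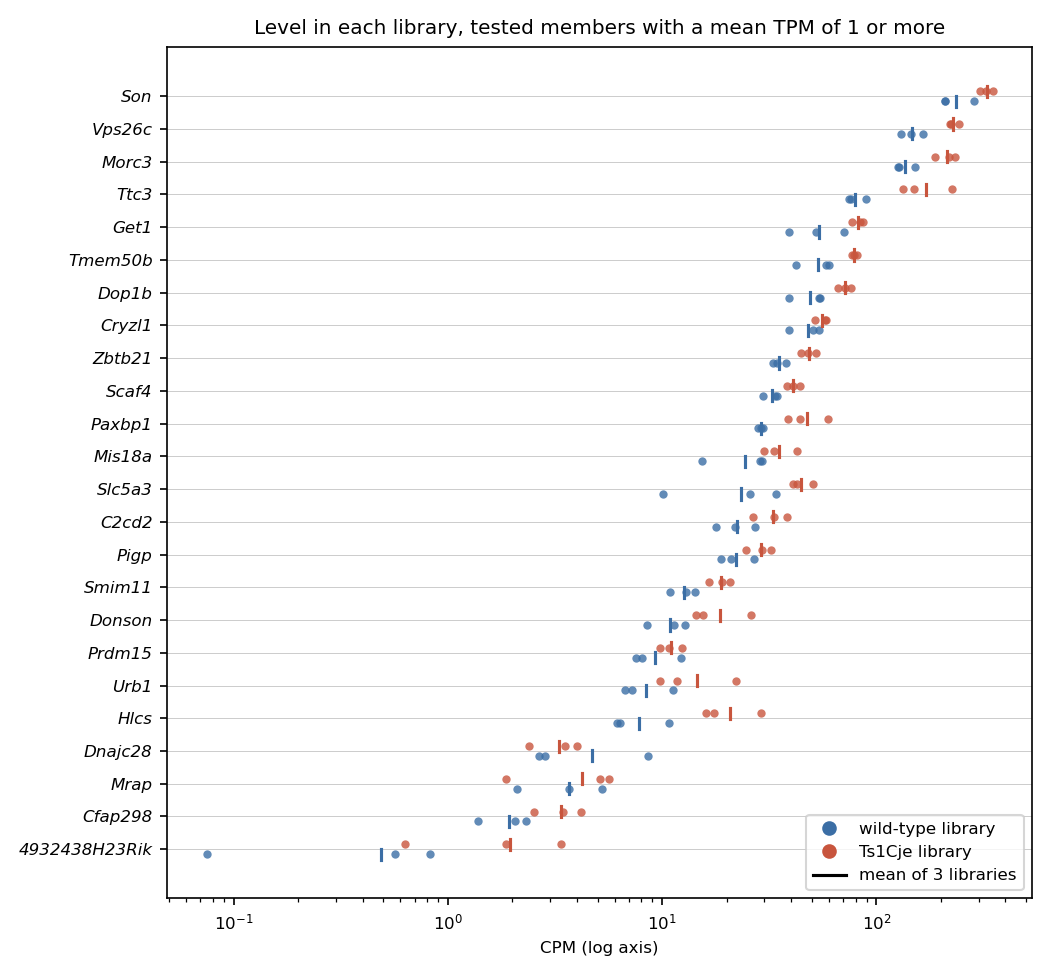
Level of the 24 tested members with a mean TPM of 1 or more, in CPM on a log axis; each point is 1 library, blue for wild-type and red for Ts1Cje, and the vertical line is the mean of 3 libraries. For most genes the red points lie to the right of the blue ones, and for Dnajc28 a single wild-type library at 8.62 CPM lies far to the right.

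The 3 members that work on nuclear RNA were all higher. Son, a splicing cofactor that keeps weak splice sites in use, had the highest counts of all members. Son was at 286, 209 and 208 CPM in wild-type against 325, 349 and 306 CPM in Ts1Cje (values in this order are replicates 1 to 3). Its log2 fold change was 0.48 ± 0.17 (SE), and log2 fold changes of the members that follow stand in brackets in the same form. The lowest Ts1Cje library thus exceeded the highest wild-type library, wild-type replicate 1. Paxbp1, a nuclear protein that binds PAX transcription factors and is also linked to splicing, was tight in wild-type at 29, 29.5 and 28.1 CPM and spread in Ts1Cje at 44.0, 59.6 and 38.6 CPM (0.71 ± 0.19). Scaf4, which binds RNA polymerase and curbs early polyadenylation, was at 29.7, 33.5 and 34.5 CPM against 44.1, 38.1 and 40.8 CPM (0.33 ± 0.15, unadjusted p = 0.0543 by edgeR). Its groups were separated, but its log2 fold change was the lowest of the 16 separated members. In annotation Scaf4 and the neighbouring Sod1 run into each other on opposite strands, yet their exons share no base.

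Members of replication, the centromere and the ribosome varied more between libraries. Donson, a factor that helps assemble the replicative helicase, was at 8.46, 11.4 and 12.8 CPM in wild-type against 26.1, 15.5 and 14.4 CPM in Ts1Cje (0.78 ± 0.29). Mis18a, which prepares centromeres for new CENP-A histone, was at 15.3, 28.6 and 29.2 CPM against 42.5, 33.4 and 29.9 CPM (0.53 ± 0.28). Urb1, needed for the large ribosomal subunit, was at 11.2, 7.25 and 6.73 CPM against 22.1, 9.79 and 11.8 CPM (0.80 ± 0.37). Ts1Cje replicate 1 was the highest library for all 3 genes. Without it the log2 fold change of Donson was 0.46 and that of Urb1 0.37, and that of Mis18a was 0.28 without wild-type replicate 1. The groups were separated for Donson and Mis18a and overlapped for Urb1. Donson and Son overlap tail to tail by 103 exonic bases on opposite strands, 3.29% of the Donson exons, and the sources used here do not give whether counting used strand. Donson also shares 287 exonic bases, 9.17% of its exons, with a long gene model on the same strand that carries the symbol Atp5o and had 0 counts, and strand cannot separate reads there.

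The trafficking members had log2 fold changes close to each other and to the median of all 29 tested members, 0.57. Vps26c, a subunit of the retriever complex that returns receptors from endosomes to the cell surface, had the highest level per gene length of all members, 152 TPM (counts divided by gene length and scaled to an equal sum in each library) over the 6 libraries. It was at 130, 145 and 165 CPM in wild-type against 221, 222 and 242 CPM in Ts1Cje, a log2 fold change of 0.63 ± 0.14 (DESeq2 adjusted p = 0.0441). Dop1b, a large Golgi and endosome protein, was at 54.4, 39.3 and 54.0 CPM against 66.4, 71.1 and 76.0 CPM (0.53 ± 0.17). The genotypes did not overlap for either gene, and the 3 Ts1Cje libraries lay close together. Get1, part of the receptor that inserts tail-anchored proteins into the endoplasmic reticulum, was at 52.1, 39.0 and 70.6 CPM against 76.6, 86.3 and 83.6 CPM (0.61 ± 0.22). Tmem50b, a small membrane protein of the same organelle, was at 58.3, 42.0 and 59.9 CPM against 81.1, 78.9 and 76.8 CPM (0.56 ± 0.17). All 4 trafficking genes were separated, all 4 had an unadjusted p under 0.05 by edgeR, and their log2 fold changes ran from 0.53 to 0.63. That span was narrower than the standard error of any of the 4, and Get1 alone ran from 0.41 to 0.86 with a library left out. Members outside the group had such values too, as C2cd2 at 0.56 and Smim11 at 0.57.

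Among regulators of proteins and chromatin, Ttc3 stood out. Ttc3, a ubiquitin ligase that acts on the kinase Akt, was at 75.9, 89.3 and 74.5 CPM in wild-type against 150, 133 and 226 CPM in Ts1Cje. Its log2 fold change was 1.09 ± 0.22, with a 95% interval of 0.58 to 1.59, and it ranked 12 by unadjusted p among all 13821 genes (unadjusted p = 0.00122 by edgeR; adjusted p = 0.792 by edgeR and 0.0108 by DESeq2). Each Ts1Cje library was well above the wild-type range. Morc3, a nuclear ATPase found at PML bodies that holds back interferon and viral genes, was at 152, 128 and 126 CPM against 232, 188 and 218 CPM (0.65 ± 0.15, rank 36). Zbtb21, a zinc finger repressor, was at 32.9, 38.0 and 34.5 CPM against 52.2, 48.1 and 44.7 CPM (0.46 ± 0.14). Both sets of libraries were separated. Prdm15, a zinc finger regulator of pluripotency, overlapped between genotypes, at 12.2, 8.08 and 7.55 CPM against 10.8, 12.4 and 9.79 CPM (0.25 ± 0.26, and 0.48 without wild-type replicate 1).

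Enzymes and transporters ranged widely, from -0.50 to 1.42. Hlcs, the ligase that attaches biotin to carboxylases, had the highest fold of the separated members. It was at 6.15, 6.36 and 10.8 CPM in wild-type against 17.5, 28.8 and 16 CPM in Ts1Cje, a log2 fold change of 1.42 ± 0.33 with a 95% interval of 0.64 to 2.19 (DESeq2 adjusted p = 0.0334; edgeR adjusted p = 0.792). Even the lowest Ts1Cje library was above wild-type replicate 3, the highest of its group. Slc5a3, which carries myo-inositol into cells, was at 25.8, 10.1 and 34.0 CPM against 50.8, 42.5 and 40.8 CPM (0.94 ± 0.39). Without wild-type replicate 2 the log2 fold change was 0.57. Its transcript lies within the transcription unit of Mrps6 and shares 159 exonic bases with it, 1.46% of the Slc5a3 exons. Pigp, a subunit of the enzyme that starts GPI anchors, was at 20.9, 26.8 and 18.9 CPM against 29.4, 24.7 and 32.4 CPM (0.38 ± 0.20), with groups that overlapped. Cryzl1, a quinone reductase relative, was nearly level at 50.5, 54.0 and 39.3 CPM against 51.9, 58.1 and 57.4 CPM (0.22 ± 0.16). Dnajc28, a relative of the DnaJ chaperones, had -0.50 ± 0.52. Its counts were 213, 76 and 71 in wild-type against 81, 95 and 118 in Ts1Cje, so that wild-type replicate 1 alone gives the negative sign, and without it the log2 fold change was 0.26.

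Among members with no firm pathway, Smim11, which encodes a small membrane protein, was at 12.9, 14.2 and 10.9 CPM in wild-type against 20.7, 19.0 and 16.6 CPM in Ts1Cje (0.57 ± 0.20), and its groups were separated. C2cd2, a protein with a lipid-binding domain, was at 22.0, 17.8 and 27.2 CPM against 26.5, 33.4 and 38.4 CPM (0.56 ± 0.22), which overlapped. Cfap298, needed to assemble the dynein arms of cilia, was at 2.31, 2.06 and 1.39 CPM against 4.17, 3.46 and 2.52 CPM (0.82 ± 0.40) and was separated at low counts. Of its exonic bases 44.2% are shared with an opposite-strand transcript, Gm49727, which had 39 counts in all libraries together. Mrap, the accessory protein of the ACTH receptor, had 0.20 ± 0.52 and turned to -0.09 without wild-type replicate 1 and to -0.08 without Ts1Cje replicate 3. The gene 4932438H23Rik had the highest fitted value of all members, 1.99 ± 0.93, from counts of 14, 2 and 22 in wild-type against 63, 17 and 99 in Ts1Cje. Its groups overlapped, its 95% interval ran from -0.17 to 4.16, and its value was 1.34 without Ts1Cje replicate 3 and 2.61 without wild-type replicate 3. Without wild-type replicate 1 it was 2.1 and Clic6, at 3.12, was higher. Lca5l, a relative of the ciliary protein lebercilin, had -0.55 ± 0.59 from 17 to 45 counts a library, and -1.14 without Ts1Cje replicate 3.

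**Figure D2:**
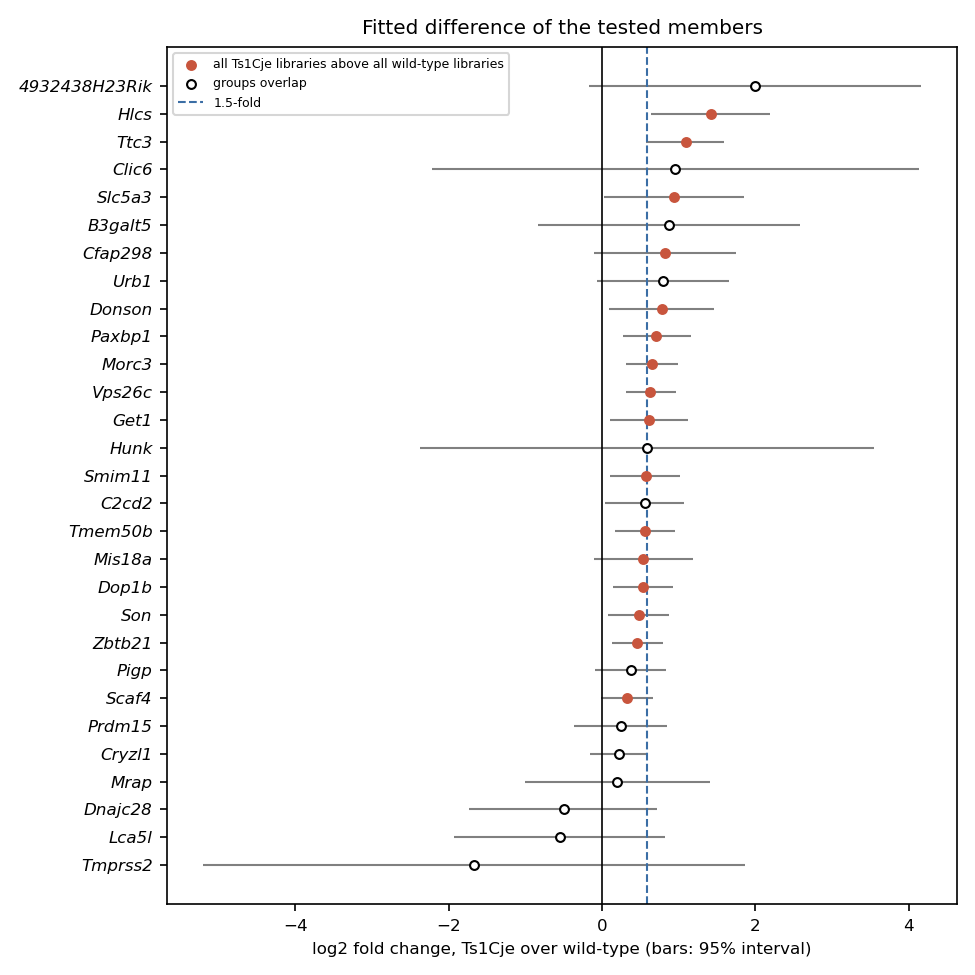
Log2 fold change of Ts1Cje over wild-type for the 29 tested members, with 95% intervals as bars; filled points mark the separated members and the dashed line marks 1.5-fold. The interval of Hlcs, 0.64 to 2.19, lies wholly above the dashed line, and Tmprss2 at -1.67 is the lowest point.

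Against the 1.5-fold of an added copy, 28 of the 29 intervals held 0.58, 1 lay above it (Hlcs) and 0 lay below it. The interval of Hlcs held 0.58 without wild-type replicate 1 (0.41 to 2.12), without wild-type replicate 2 (0.35 to 2.22) and without Ts1Cje replicate 2 (0.32 to 1.90). Over all genes tested 52.8% of intervals held that value and 0.246% lay above it. Those genes had a median of -0.01, so these shares do not give the rate for genes that follow a 1.5-fold dose. The intervals were not adjusted for the number of genes. Against no difference, 14 intervals lay above 0 and 15 held it. Intervals were wide for low genes, with standard errors from 0.14 to 1.51, so a value that holds 0.58 does not show that a gene follows its dose. Among the 24 tested members with a mean TPM of 1 or more, 23 were positive, with a median of 0.56. The 21 tested coding genes of the segment that are not members had a median of 0.74 with quartiles of 0.57 and 0.91, 20 positive and 16 separated. The difference between the medians was not tested.

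Library by library the shift was similar. Relative to the wild-type mean of each gene, the median of the 29 members on the log2 CPM scale was 0.09, -0.15 and -0.02 in the wild-type libraries and 0.62, 0.58 and 0.42 in those of Ts1Cje. Of the 29 members 27, 26 and 25 lay above the wild-type mean in the 3 Ts1Cje libraries, and 18, 11 and 14 in the wild-type libraries. That mean is taken from the same wild-type libraries, so their own values centre near it by construction. Without wild-type replicate 1 the median log2 fold change was 0.62, and 12 members had an unadjusted p under 0.05.

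Log2 fold change showed little relation to position in the segment. Cut into 3 parts of equal length, the segment had a median log2 fold change of 0.58 over 16 tested members in the part nearest Scaf4, 0.64 over 6 in the middle and 0.46 over 7 in the part nearest Zbtb21. Spearman's rho between log2 fold change and start position was -0.09 across the 29 genes, and -0.04 with mean TPM. Both describe genes of the same 6 libraries, which are not independent points. The first and the last member, Scaf4 at 0.33 and Zbtb21 at 0.46, were both separated between genotypes.

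**Figure D3:**
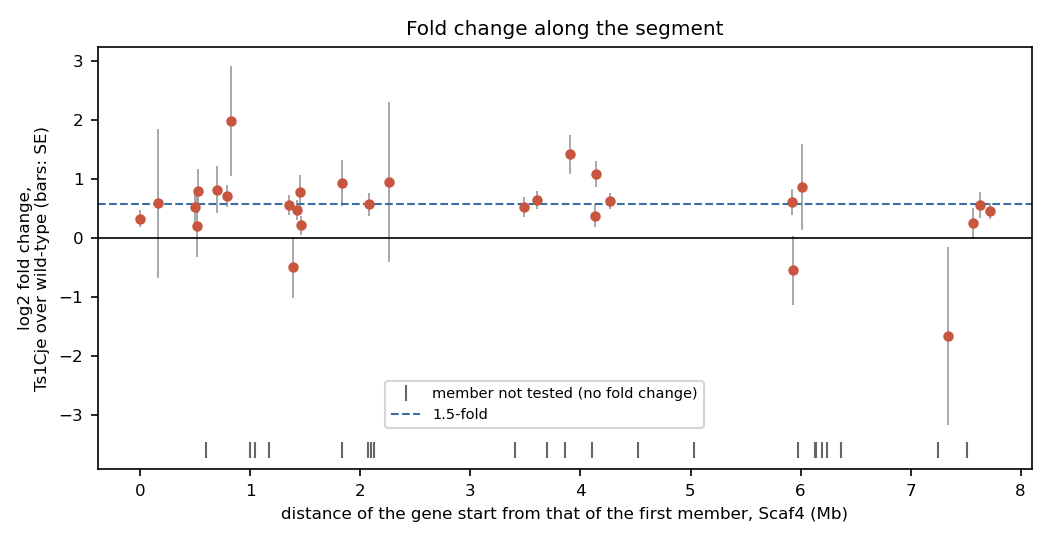
Log2 fold change (points, with the standard error as bars) of the 29 tested members by the distance of their start from that of Scaf4, in Mb; ticks at the bottom mark members that were not tested. Medians of 0.58, 0.64 and 0.46 in the 3 parts of the segment lie near the dashed 1.5-fold line.

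The pair Ttc3 and Pigp was looked at after its values were seen. Both genes start from the same stretch of DNA in opposite directions, and their exons overlap by 326 bases, 16.4% of the Pigp exons and 2.01% of the Ttc3 exons. The count of Ttc3 was 3.63, 3.34 and 3.94 times that of Pigp in the wild-type libraries and 5.11, 5.39 and 6.98 times in the Ts1Cje libraries. All 3 Ts1Cje ratios were higher than all wild-type ratios. On the log2 scale the mean ratio was 2.53 in Ts1Cje and 1.86 in wild-type. That difference of 0.67 restates the 2 log2 fold changes above and was not tested. Without strand, reads in the overlap cannot be told apart. At the far end, Zbtb21 and C2cd2 lie on the same strand and share 86 exonic bases.

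Windows of 250 bases before a RefSeq start held more CpG dinucleotides in members with enough counts to be tested than in the rest. Such windows (GRCm38.p6, the first start listed for a gene) were found for 37 members, of which 27 were tested. At least 10 CpG, a feature of CpG island promoters, were present in 25 of the 27 windows of tested members (92.6%, median 23) and in 4 of the 10 of members under the filter (median 7.5), against 50.4% of 17491 coding genes; the difference was not tested. Not every window lies upstream of the annotated gene. Of the 27, 5 lay wholly and 12 partly in exons of GENCODE M21, and 3 (Pigp, 4932438H23Rik and C2cd2) ended over 1000 bases inside the gene. In windows free of exons, at least 10 CpG were present in 8 of 10 tested members and 0 of 5 of the others. In windows that ended within 1000 bases of the outermost start of the gene, the counts were 23 of 24 and 3 of 9. The sequences below, of 3 tested members and of 2 members with no counts, are free of annotated exons and are examples. The 2 with no counts hold the fewest CpG of the 5 exon-free windows of members under the filter, which held 1 to 9. The 10 exon-free windows of tested members held 5 to 36, so the 2 sets overlap. CpG is in capitals, all else in lower case, and each runs 5′ to 3′ on the strand of its gene. Morc3 (plus strand, chr16:93831871-93832120) has 17 CpG, Zbtb21 (minus strand, chr16:97962623-97962872) has 30, and Hlcs (minus strand, chr16:94313572-94313813) is given without the 8 bases nearest the start, which are exonic. Pcp4 (plus strand, chr16:96467356-96467605), a calmodulin regulator of Purkinje cells, has 3 and Kcnj15 (plus strand, chr16:95257308-95257557), an inward rectifier potassium channel, has 1.
Morc3: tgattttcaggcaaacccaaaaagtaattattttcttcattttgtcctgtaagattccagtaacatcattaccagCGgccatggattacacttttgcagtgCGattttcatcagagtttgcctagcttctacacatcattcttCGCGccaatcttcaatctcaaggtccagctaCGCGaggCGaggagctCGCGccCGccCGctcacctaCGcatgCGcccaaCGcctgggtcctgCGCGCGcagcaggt
Zbtb21: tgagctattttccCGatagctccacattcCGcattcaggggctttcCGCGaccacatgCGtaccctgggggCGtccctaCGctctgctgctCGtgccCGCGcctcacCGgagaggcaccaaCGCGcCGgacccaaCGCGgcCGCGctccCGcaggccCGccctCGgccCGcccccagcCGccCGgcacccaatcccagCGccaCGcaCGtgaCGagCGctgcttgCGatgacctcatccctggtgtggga
Hlcs: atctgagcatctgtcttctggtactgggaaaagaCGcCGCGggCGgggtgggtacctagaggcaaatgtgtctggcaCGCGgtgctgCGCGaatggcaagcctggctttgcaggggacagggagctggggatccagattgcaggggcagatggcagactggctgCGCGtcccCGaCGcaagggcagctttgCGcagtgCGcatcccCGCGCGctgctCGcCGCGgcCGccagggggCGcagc
Pcp4: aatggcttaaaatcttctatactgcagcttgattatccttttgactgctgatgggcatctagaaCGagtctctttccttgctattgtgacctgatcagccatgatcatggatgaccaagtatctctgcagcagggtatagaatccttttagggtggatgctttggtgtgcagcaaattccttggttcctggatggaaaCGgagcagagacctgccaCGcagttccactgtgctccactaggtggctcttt
Kcnj15: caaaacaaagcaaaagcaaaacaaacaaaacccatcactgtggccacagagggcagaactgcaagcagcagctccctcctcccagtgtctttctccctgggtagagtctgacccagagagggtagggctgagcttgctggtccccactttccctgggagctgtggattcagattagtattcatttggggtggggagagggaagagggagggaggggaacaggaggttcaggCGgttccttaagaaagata
CpG content alone did not mark a transcribed gene. The windows of Kcnj6, Olig2 and Dscam hold 26, 22 and 21 CpG, and each gene had 0 counts; all 3 are genes of neurons or glia and their precursors. In the other direction, 2 windows of tested members held under 10 CpG. That of 4932438H23Rik, inside that gene, held 5, and that of B3galt5, free of exons and directly before its annotated start, held 9.

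**Figure D4:**
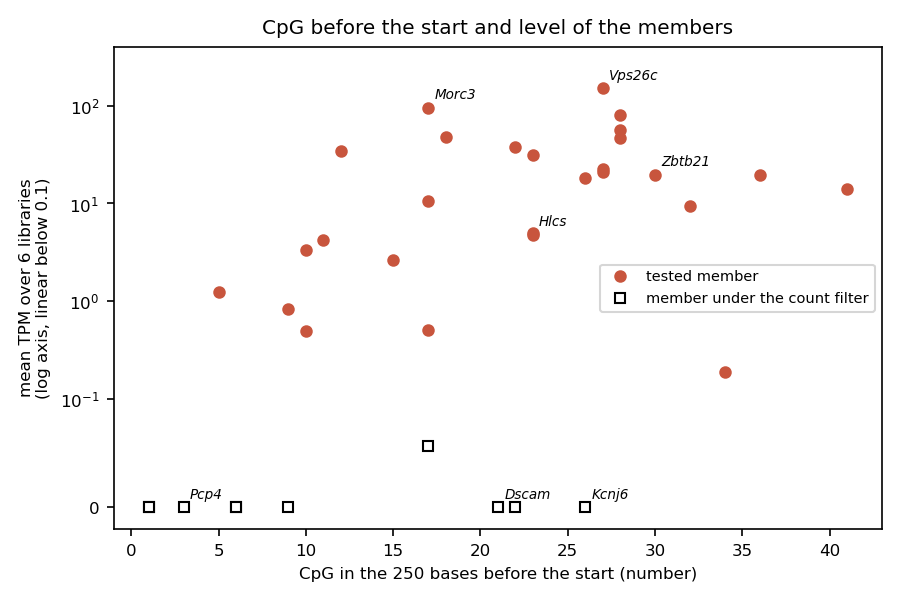
Mean TPM over the 6 libraries (log axis, linear below 0.1) against the number of CpG in the 250 bases before the start, for the 37 members with a RefSeq window; filled points were tested, open squares were under the count filter. Filled points lie mostly at 10 or more CpG, and Kcnj6, with 26, is among the open squares at 0.

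Short motifs were counted on both strands of the same windows. The box GGGCGG was present in 17 of 27 windows of tested members (63%), against 42.7% of coding genes. The string GCATGCGC, the core of the sites that NRF1 binds, was present in 5, those of Mis18a, Paxbp1, Morc3, Ttc3 and Lca5l (18.5%), against 2.98% of coding genes. The ETS motif CCGGAAGT was present in 3, those of Cfap298, 4932438H23Rik and Vps26c (11.1% against 3.84%), and CCAAT in 6 (22.2% against 36.3%). The box TATAAA was present in 1 of the 27 (3.7% against 12.4%), and GAGGAAGT, which PU.1 can bind, in 0 (2.18% of coding genes). These 27 windows include ones in exons, and those of Cfap298 and Ttc3 lie wholly in exons. In the 10 windows of tested members that are free of exons, GGGCGG was present in 6 and CCAAT in 2. There GCATGCGC was present in 1, that of Morc3, and CCGGAAGT in 1, that of 4932438H23Rik, which lies inside the gene. Counts this small are given as descriptions. The 2 sets are also unlike, since the 27 windows are of genes with enough counts and the coding genes were taken whatever their counts. At least 10 CpG were present in 92.6% of the former and 50.4% of the latter. Motif shares in other genes with enough counts were not examined.

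Of the 17 members with 0 counts most belong to other tissues. They include Olig1 and Olig2, transcription factors of oligodendrocytes, Sim2, a regulator of midline cells, Dscam, an adhesion protein of neurons, Pcp4, the potassium channel genes Kcnj6, Kcnj15 and Kcne2, Cldn14 and Igsf5 of cell junctions, Ripply3, and Itgb2l, an integrin chain of neutrophils. A count of 0 allows up to 3 counts, which is 0.0887 to 0.121 CPM depending on the library and covers counting error only. For Gm21970 and Gm49948, predicted read-through genes, a count of 0 carries little information. All exonic bases of Gm21970 lie in exons of Ifnar2 (35.6%) or Il10rb (64.4%). Those of Gm49948 lie in exons of the overlapping Igsf5 (76.4%) and Pcp4 (23.6%). Gm49711, also a predicted read-through gene, is covered only in part, as it shares 24.1% of its exonic bases with Mrps6 and 12.5% with Slc5a3. Of the members with few counts, Kcne1, a potassium channel subunit, had 14 counts in Ts1Cje replicate 1 and 0 in the other 5 libraries, and Sh3bgr had 23, 0 and 12 in wild-type against 8, 4 and 2 in Ts1Cje. Eva1c had 10, Ripk4, a kinase of keratinocytes, 12 and Fam3b 0 in wild-type replicate 1, and none of these 3 had over 5 counts in another library.

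Members known from epithelia were low and uneven. Tmprss2, a serine protease of epithelial surfaces, had 130, 8 and 0 counts in wild-type against 28, 17 and 8 in Ts1Cje replicates 1 to 3. Its log2 fold change of -1.67 ± 1.51 was the lowest of the members and was 1.91 without wild-type replicate 1. Clic6, a chloride channel relative, had 28, 0 and 5 against 29, 42 and 4 counts (0.95 ± 1.36). Its value was 3.12 without wild-type replicate 1 and 0.19 without Ts1Cje replicate 2. B3galt5, which builds glycan chains of epithelia, had 58, 22 and 11 against 113, 56 and 33 counts (0.87 ± 0.73), with 1.81 without wild-type replicate 1 and 0.43 without Ts1Cje replicate 1. Hunk, a kinase, had 12, 0 and 20 against 22, 30 and 3 counts (0.59 ± 1.27, and -0.12 without Ts1Cje replicate 2). The 7 epithelial markers examined summed to 24.4 CPM in wild-type replicate 1, 0.299 and 0.225 CPM in replicates 2 and 3, and 5.08 to 9.46 CPM in Ts1Cje libraries. Of these 7, 6 reached 10 counts in 3 libraries and 0 were without counts throughout. Among wild-type libraries, replicate 1 was also the highest for cardiomyocyte markers, at 71.6 CPM against 2.32 and 2.4 CPM. Mesenchymal markers summed to 40.2 CPM there against 18.5 and 18.1 CPM, and erythroid and macrophage markers were highest there too. Endothelial markers, and those of megakaryocytes and mast cells, were lowest in that library. The part of any of these cell types in the values of Tmprss2 was not tested.

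Genes that work with the members but lie outside the segment were examined in 11 lists. Of 110 such partners 103 could be tested. Log2 fold changes were positive for 63 and negative for 40 of these, and their median was 0.06; without wild-type replicate 1, 50 were positive, the median was -0.01 and medians of the lists ran from -0.12 to 0.22. Of the partners 0 passed an adjusted p of 0.05 (edgeR with Benjamini-Hochberg; 0 with DESeq2 and 0 with limma-voom). At an unadjusted p under 0.05 by edgeR 2 partners were higher and 1 lower, where 2.99% and 2.8% of all genes were. For Vps26c, the 13 tested genes of retriever and the Commander complex had a median of 0.12, with Ccdc93 at 0.31 ± 0.13 and Vps29 at 0.40 ± 0.19 (0.25 without wild-type replicate 1). Without that library the median of the 13 was 0.01, and 7 of them were positive. For Hlcs, the 9 genes of biotin supply and the carboxylases it serves had a median of 0.06, with Pcx, pyruvate carboxylase, at 0.95 ± 0.50 and Btd, which recycles biotin, at 0.30 ± 0.20 (0.56 and 0.18 without wild-type replicate 1). For Son, Scaf4 and Paxbp1, 15 splicing and polymerase-linked genes had a median of -0.06, and Srrm2 had -0.44 ± 0.25 (-0.13 without wild-type replicate 1).

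All 11 tested partners of Urb1 in ribosome assembly were positive, with a median of 0.20, and 4 of them were separated upwards. Of all genes 49.2% were positive and 6.38% separated upwards. Without wild-type replicate 2, 9 of the 11 partners were positive and the median was 0.11. Leaving out Ts1Cje replicate 1 left 10 positive, with a median of 0.18. Ftsj3, a pre-rRNA processing factor, had 0.53 ± 0.16. Partners of Donson and Mis18a had a median of 0.20 over 11, with Cenpa, the centromeric histone, at -0.43 ± 0.24; leaving out wild-type replicate 1 gave -0.07 for that median and -0.21 for Cenpa. Around Get1, 6 genes of tail-anchored insertion had a median of 0.16, and around Dop1b 7 had 0.19. The subunits that work with Pigp had -0.05 over 6, inositol genes beside Slc5a3 0.01 over 5, and MORC and PML body genes beside Morc3 0.01 over 9. In the list of Zbtb21 and Prdm15, 11 zinc finger regulators and corepressors had a median of -0.25, and 4 were separated downwards, where 5.72% of all genes were. Prdm1, a regulator of differentiation in lymphoid and myeloid cells, was at 33.3, 14.2 and 12.1 CPM in wild-type against 5.18, 11.9 and 5.05 CPM in Ts1Cje, a log2 fold change of -1.43 ± 0.50 (unadjusted p = 0.0222 by edgeR; adjusted p = 0.792). Without wild-type replicate 1, its highest library, the value was -0.84 and the median of the list -0.09.

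**Figure D5:**
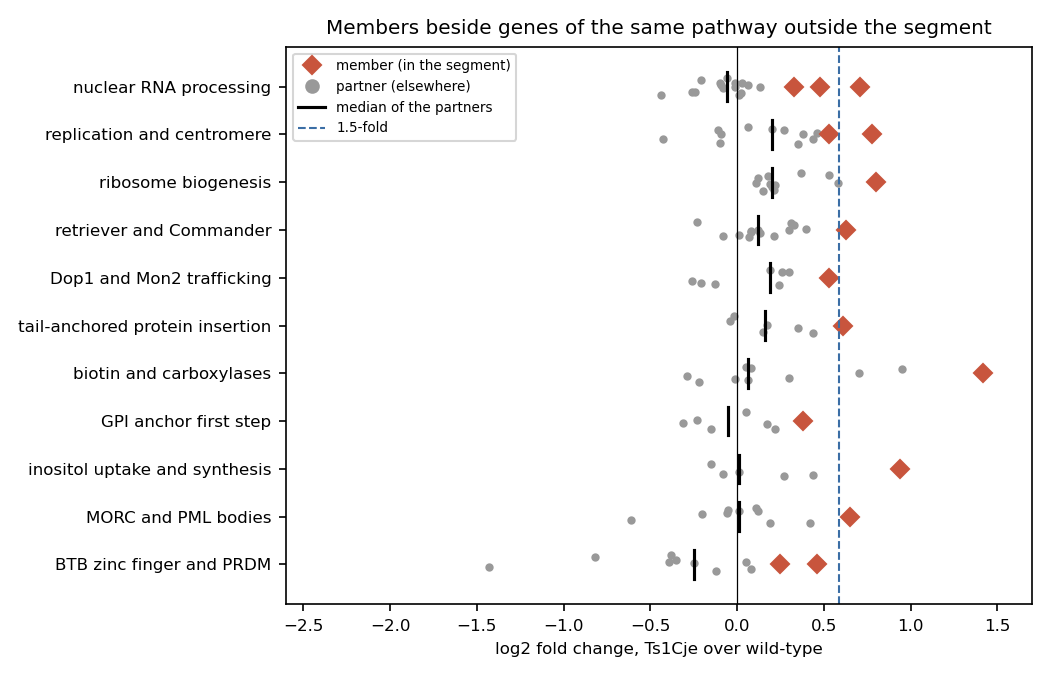
Log2 fold change of the members (red diamonds) and of tested genes of the same pathway outside the segment (grey points, with the median as a line) in 11 lists. In each list with 1 member, the diamond lies above the partner median, as for Vps26c at 0.63 against 0.12. Without wild-type replicate 1 these 2 values were 0.54 and 0.01.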

How the data were processed

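RNA was made into 6 libraries with the SMART-seq HT Plus kit, per the labels' protocols. Of tools, featureCounts 1.6.3, HISAT2 2.1.0, Trimmomatic 0.38 and FastQC 0.11.7 are in the submitters' processing notes, with the build mm10. The sources used here give neither the use of strand nor that of reads with several positions. The authors deposited raw counts per gene, and TPM that equal those counts scaled by a gene length and by library, within 1% for each of 9151 genes with at least 100 counts in every library.

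The counts were tested between genotypes, the single term of the model, in edgeR 4.0.16 (R 4.3.3) with TMM scaling, filterByExpr (count minimum 10, total minimum 15), the quasi-likelihood test and Benjamini-Hochberg adjustment over 13821 genes at 0.05. CPM use library totals with TMM factors, and log2 CPM a prior count of 2. The standard error is the log2 fold change divided by the root of F, and the 95% interval uses its t quantile. Positive values mean higher in Ts1Cje. Sequences and CpG counts are from RefSeq GRCm38.p6 (the first window listed for a gene) and exon overlaps from GENCODE M21. The test was also run on simulated counts, and the outcome is not given here. Pairs of libraries of a genotype differed by far more than sampling noise.

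Members, gene lists and tests were chosen with earlier results of these data known. Every member that passed 10 counts in 3 libraries could be named, with full values for separated members, the highest and lowest folds, the highest levels and intervals that leave out 1.5-fold, and up to 2 partners a list with the smallest p. Alternatives were other scalings, filters, DESeq2 1.42.0, limma-voom and limma on log2 TPM (limma 3.58.1), the replicate number as a block, coding genes alone and each library left out. Markers of 10 cell types were summed.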

Additional observations from a re-analysis of the deposited data

How the results depend on the processing

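The median of the tested members stayed between 0.49 and 0.64 under all 18 alternatives to the fit, and 0 members passed the threshold in 17 of them; with DESeq2 3 did. Over all genes 1 passed, against 3 with no filter, 56 with DESeq2, 0 with the replicate block and 1 to 6 with a library left out. With a library left out, 9 to 12 members had an unadjusted p under 0.05 and 0 to 1 were separated downwards. Of 517 values of single members under alternatives 507 kept direction and side of the threshold, 3 newly passed and 7 changed sign. Tmprss2 went to 0.87 with limma-voom, 0.36 with the replicate block and -2.25 to 1.91 with a library left out; leaving out wild-type replicate 1 or another library also gave -0.09 to 0.55 for Mrap, -0.78 to 0.26 for Dnajc28 and -0.12 to 1.36 for Hunk. The cause was not tested. Same-numbered libraries did not deviate together (r of -0.18, -0.05 and -0.06 over genes), so the numbers were not taken as pairs; with the replicate block 15 members had an unadjusted p under 0.05. Intervals above 1.5-fold, added after seeing the data, numbered 2 with TMM without chromosome 16, with no filter and with 10 counts in 3 libraries (Hlcs and Ttc3), 0 with the replicate block and 0 to 1 with a library left out, against 1. Values of partners without a library were also added after seeing the data. The filter on counts kept 24 members at 50 counts in 3 libraries.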
